A study of Sus scrofa with 4 samples.

Results

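The genes described here encode the machinery that carries newly made proteins into the endoplasmic reticulum (ER) and onward through the Golgi apparatus, together with the small GTPases that direct vesicles. They were chosen by a rule on gene symbols, which was set with earlier results of these data known. It takes every gene on the array whose single annotated symbol begins with SEC, SSR, SRP, TMED, ARF or RAB and a number. Single symbols that begin with COP followed by A, B, G, E or Z are taken too. The rule found 75 genes among 6765 with 1 annotated symbol, and they are covered by 119 probe sets. Each gene is represented by its probe set with the highest mean log2 signal. A further probe set, whose annotation lists RAB6A under separate gene records, was left out of the 75. The symbol rule also takes in a few genes outside vesicle traffic, namely SEC14L1 and SEC14L2, which encode lipid-binding proteins.

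In the hepatocyte this pathway is in constant use, because the liver makes most plasma proteins, among them albumin and the apolipoproteins. The signal recognition particle catches a nascent secretory protein and brings it to the SEC61 channel of the ER membrane. Cargo leaves the ER in vesicles with a COPII coat, p24 proteins of the TMED family accompany it, and COPI vesicles, whose coat is recruited by ARF GTPases, return escaped proteins and membrane. RAB GTPases then mark each compartment and guide docking and fusion.

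Liver RNA came from male crossbred piglets, (German Landrace x Large White) x Pietrain, aged 7 weeks, which ate a basal diet for 21 days either without addition (control group) or with 500 mg/kg of L-carnitine (carnitine group). Livers were taken 2.5 h after the last meal. RNA of 4 pigs went into each pool, and 2 pools per diet were hybridized to 1 Affymetrix porcine array each. Differences are given below on the log2 scale as carnitine minus control ± standard error from limma, with 2 pools per diet, and adjusted p-values are those of the limma fit. These errors describe the spread between 2 pools per diet, and pools average over animals, so that the variation between single pigs cannot be seen. In whole liver, fewer cells of a type and less RNA per cell cannot be told apart.

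All 10 hepatocyte markers tested gave bright signals, which fits the label of the tissue, for instance 45232 and 39815 for ALB, the albumin gene, with carnitine and 49289 and 45404 without it. Their median log2 difference was -0.12. In 5 of the 10 each carnitine pool lay below each control pool, against 21% of all genes and 21.6% of those above the median signal. HNF4A went the other way without overlap, at 11694 and 11225 with carnitine and 9821 and 10797.5 without it. Markers of other cells were dimmer: the 5 measured of 8 Kupffer cell and macrophage markers summed to 3403 and 2744 with carnitine and 3862 and 3774 without it. For 7 of 8 stellate cell and fibroblast markers the sums were 4097 and 3966 against 3028 and 10140, so that control pool 2 stood apart. ACTA2 alone gave 5533 in control pool 2, against 542 to 1174 in the other pools. In the same pool the sum was highest for the 4 measured of 5 cholangiocyte markers, at 1133 against 320 to 429 in the other pools. The sum of 5 of 8 endothelial markers was highest there too, at 3548 against 1625 to 2589. Not every single marker followed, for instance CFTR of the cholangiocyte and CDH5 of the endothelial markers. Of the stellate cell and fibroblast markers, COL1A2, COL3A1 and RGS5 were not highest in control pool 2. The 3 measured of 4 erythroid markers summed to 771 and 574 against 1027 and 1362. That gap lay mainly in ALAS2, at 358 and 240 against 644 and 917, with a smaller part in AHSP, which was dim. The globin gene HBB overlapped, at 310 and 299 against 278 and 301 (log2 difference 0.073). For 2 of 4 markers of pancreatic acinar cells the sums were 93.9 and 96.1 against 63.1 and 76.0. For the pig GAPDH control the ratio of 3' to 5' signal, which reflects RNA integrity and labelling, was 18.7 and 16.1 with carnitine and 12.5 and 11.6 without, and that of actin 157 and 136 against 91.2 and 86.7. A second set of GAPDH control probes overlapped, at 9.65 and 11.1 against 10.2 and 9.04. For the EF1A control the ratio was 23.4 and 29.6 against 57.9 and 18.2, so that there control pool 1 stood apart. The part of these differences in the results below was not tested.

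More of the secretory pathway genes had higher signals in the carnitine pools than had lower signals, by small amounts. Of the 75 genes, 51 (68%) had a log2 difference above 0 and 24 below 0, against 49.1% of all genes above 0. That share of all genes also belongs beside the counts by step and list below. The median of the 75 was 0.22, while the median over all genes was -0.0089. With quantile normalization 54 of the 75 lay above 0, and with median centring 57. No member passed an adjusted p of 0.05 in limma, where the smallest adjusted p was 0.399, and of all probe sets on the array 0.00417% (1 of 23999) passed. At an unadjusted limma p under 0.05, 15 of the 75 members were higher and 0 were lower, whereas 6.56% of all genes were higher and 3.99% lower. Among genes above the median signal of 111, the counts were 14 of 69 members (20.3%), against 7.98% of all such genes for higher and 4.37% for lower signals.
That count rested on carnitine pool 2 and on the model of the variance. Without carnitine pool 2, 1 member (1.33%), the COPII gene SEC24C, had an unadjusted p under 0.05 and was higher, against 1.85% of all genes. Without carnitine pool 1 the number was 6 (8.00%), against 3.47% of all genes. With a variance that does not follow signal it was 1 (1.33%), here ARF2, against 3.06%, and a one-factor analysis of variance gave 5 (6.67%), against 4.17%, and 1 lower member. Without control pool 1, 13 members (17.3%) were higher, against 8.32% of all genes. Without control pool 2, 14 (18.7%) were higher, against 10.1%, and 2 were lower. In all 15 members both carnitine pools lay above both control pools, so their log2 differences necessarily stayed above 0 whichever pool was left out.

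The groups of pools did not overlap for 40 members. Both carnitine pools lay above both control pools in 32 (42.7%), against 21.5% of all genes and 23.7% of genes above the median signal. They lay below in 8 (10.7%), against 21% of all genes and 21.6% of those above the median signal. The lower members were SEC62, TMED2, COPG2, RAB7A, RAB9A, RAB11B, RAB18 and RAB35. A difference of 2-fold, the threshold of the study, was reached upward by ARF2 and RAB26 (2 of 75, against 4.76% of all genes) and downward by 0 members, against 4.17%. An exact two-sided permutation test of 2 pools against 2 has a smallest p of 0.333, so none is given.

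**Figure D1:**
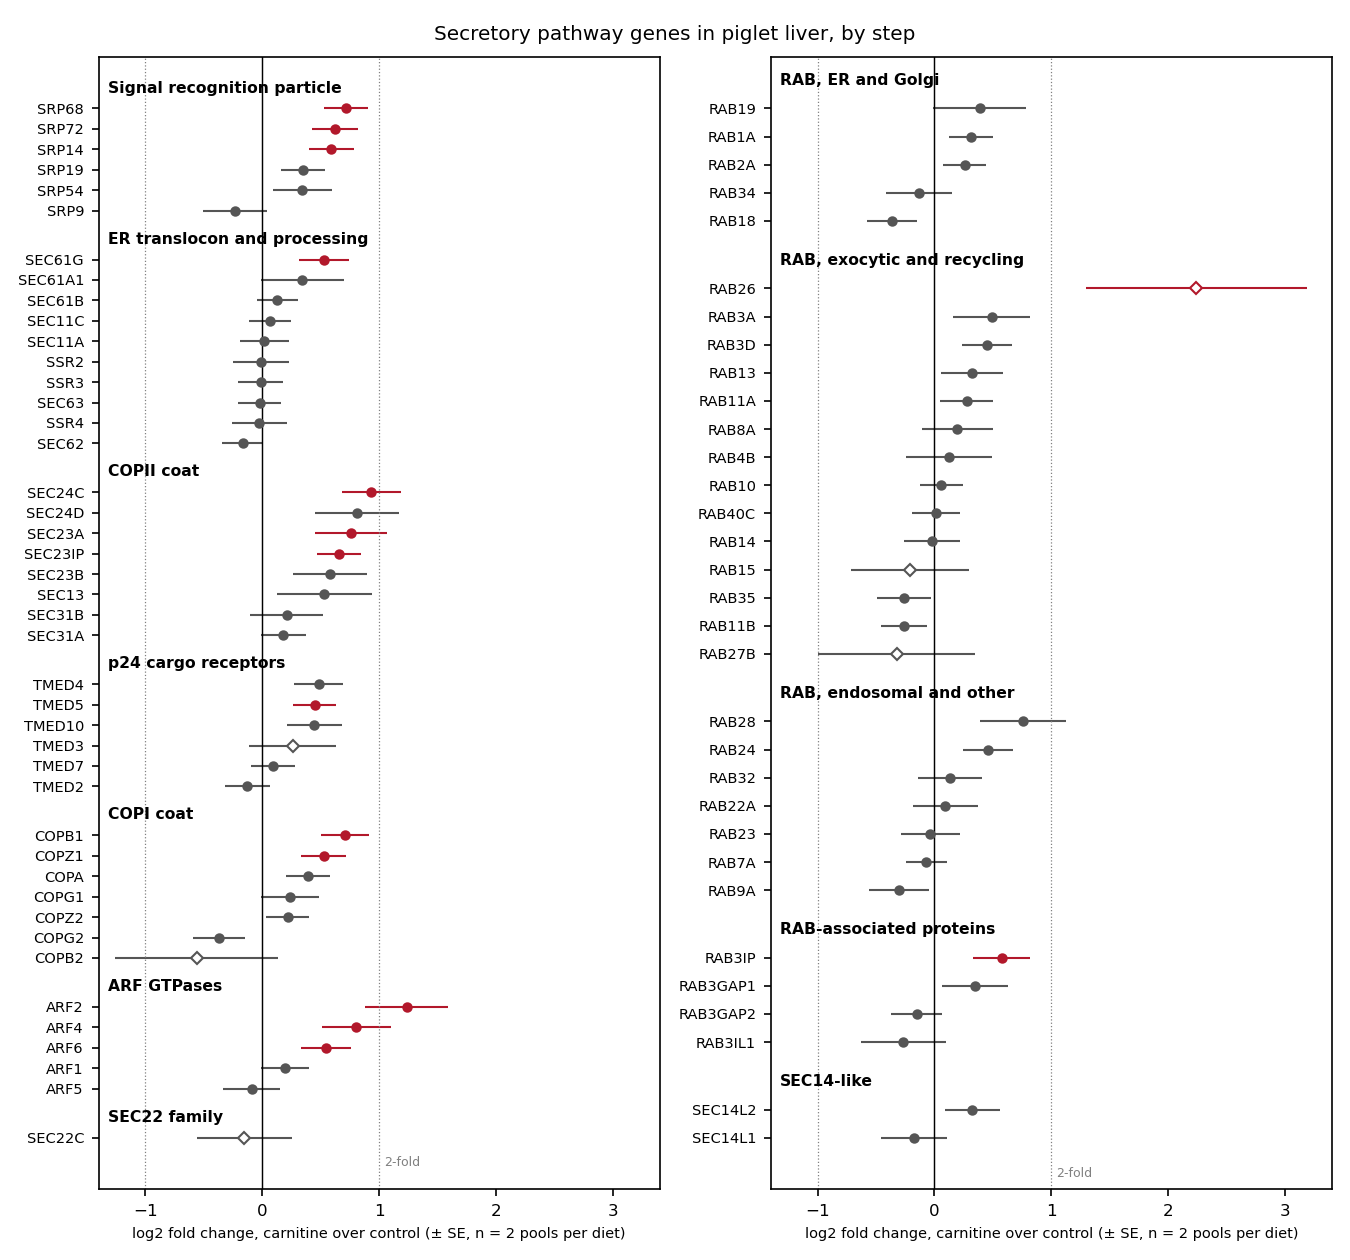
Log2 difference (carnitine over control, with its standard error from limma, n = 2 pools per diet) of the 75 secretory pathway genes, grouped by step, with red for an unadjusted p under 0.05 and open diamonds for genes below the median signal of the array. All 8 COPII genes lie to the right of 0, the SSR genes lie at 0, and the RAB genes lie on both sides.

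The members were bright on the array. In 69 of the 75 the mean signal lay above the median of all probe sets, as it did in 5039 of all 6765 genes. Each gene is taken by its brightest probe set, so that most genes lie above that median. The median member stood at the 76.3th percentile of all genes. Geometric mean signals ran from 18.8 for RAB26 to 14885 for TMED2. Signals of different probe sets depend on their probes, so these values rank brightness on the array and not the abundance of transcripts.

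**Figure D2:**
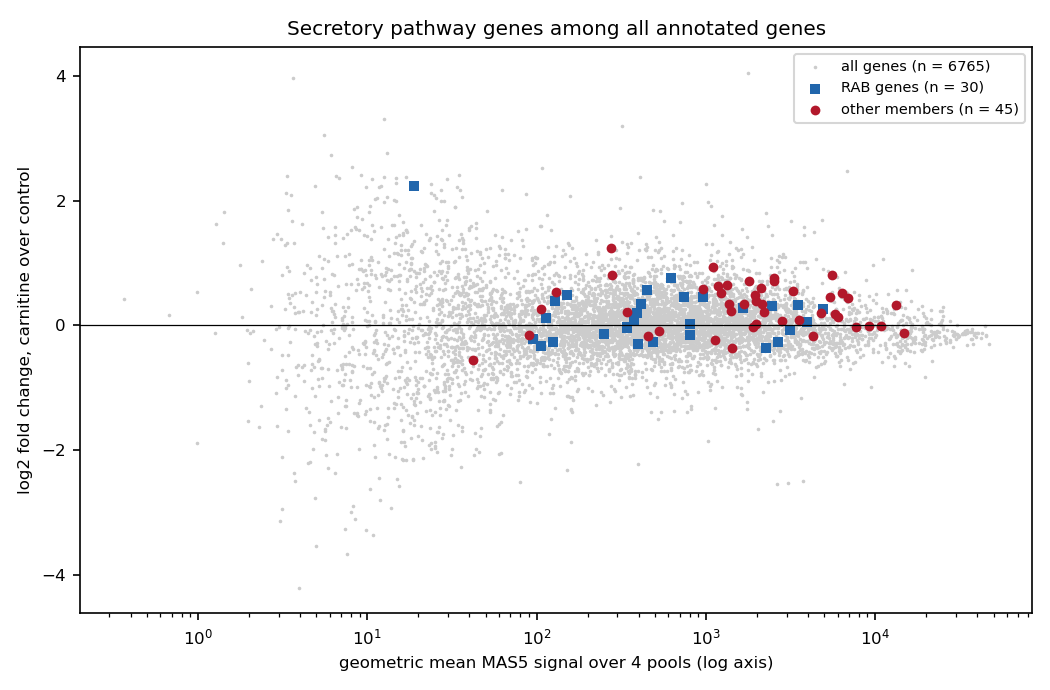
Log2 difference (carnitine over control) against the geometric mean MAS5 signal of the 4 pools on a log axis, for all 6765 genes (grey), the RAB genes (blue squares) and the other members (red circles). Most members lie in the bright part of the plot, where the spread of all genes is narrow, and the outlying square is RAB26.

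Among the 6 signal recognition particle genes, 5 had higher mean signals with carnitine, and the median log2 difference was 0.47. SRP68 and SRP72 encode the protein pair that binds the S domain of the particle's RNA. SRP68 had signals of 2217 and 2414 with carnitine and 1318 and 1500.2 without it, a log2 difference of 0.72 ± 0.19 (adjusted p = 0.399). For SRP72 the signals were 1355 and 1570 against 915 and 978 (log2 difference 0.62 ± 0.20, adjusted p = 0.461). In both genes, which were named for their small unadjusted p, the gap between diets exceeded the gap between pools of a diet. SRP14, which with SRP9 forms the part of the particle that slows translation, gave 2334 and 2882 against 1712 and 1730 (log2 difference 0.59 ± 0.20, adjusted p = 0.467). Its partner SRP9 showed no such gap, with 1000.3 and 1081 lying between the control values of 945 and 1576.
SRP19, needed for assembly of the particle, had 2386 and 2452 against 2078 and 1737 (log2 difference 0.35 ± 0.19), but its second bright probe set gave -0.50 ± 0.30. SRP54, the GTPase that binds the signal peptide, had 1244 and 1917 against 1120.2 and 1322, and the diets overlapped (log2 difference 0.34 ± 0.25, and 0.032 without carnitine pool 2). A dimmer probe set of SRP68 gave a log2 difference of -0.29 ± 0.62 at a mean signal of 44.0. The other probe sets of SRP72 gave 1.32 ± 0.46 and 0.20 ± 0.75.

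At the ER membrane the translocon genes were nearly level. The 10 genes of the channel, its partners and signal peptidase had a median log2 difference of 0.0050, with 5 above and 5 below 0, a split that became 8 above 0 with quantile normalization and 9 with median centring. SEC61G, the smallest subunit of the channel, was the exception, with signals of 7025 and 8263 against 4640.3 and 6029 (log2 difference 0.53 ± 0.21, adjusted p = 0.553). Its value was 0.34 without control pool 1. SEC61B, another channel subunit, had 6187 and 6357 against 5825 and 5656, a narrow gap without overlap (log2 difference 0.13 ± 0.18). SEC61A1, which forms the pore, had 2084 and 1721 against 1007 and 2212. Its pools overlapped, and its log2 difference of 0.34 became -0.22 without control pool 1.
The 3 measured subunits of the translocon-associated protein complex, SSR2, SSR3 and SSR4, were bright members. SSR2 had 10965 and 10499 with carnitine and 8794 and 13238 without it, a log2 difference of -0.0081 ± 0.24. For SSR3 and SSR4 the log2 differences were -0.013 ± 0.19 and -0.025 ± 0.24, and the diets overlapped in all 3, whose values turned to between 0.014 and 0.060 with quantile normalization or median centring. SEC62, a channel partner for proteins that enter after translation, was slightly lower in both carnitine pools, with 3970.5 and 4161 against 4603 and 4537 (log2 difference -0.17 ± 0.18). SEC63, which recruits the chaperone BiP to the channel, and the signal peptidase subunits SEC11A and SEC11C had log2 differences from -0.023 to 0.067.

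All 8 genes of the COPII coat and its partners had higher mean signals in the carnitine pools, with a median log2 difference of 0.62, and in 6 of the 8 the diets did not overlap, where 21.5% of all genes and 23.7% of those above the median signal had both carnitine pools higher. With control pool 2 left out, 7 of the 8 lay above 0. SEC24C, a cargo-binding subunit of the inner coat, had 1677 and 1386 with carnitine and 653 and 977 without it, a log2 difference of 0.93 ± 0.25 (adjusted p = 0.410). SEC24D, its paralog, gave 396 and 346 against 292 and 152 (log2 difference 0.81 ± 0.36, and 0.34 without control pool 2). Both cargo-binding genes were thus higher in each carnitine pool, while the control pools differed widely from each other.
SEC23A, the GTPase-activating subunit that pairs with SEC24 proteins, had 2466 and 4421 against 1684 and 2265 (log2 difference 0.76 ± 0.31, adjusted p = 0.554). Carnitine pool 1 was only just above control pool 2, and the log2 difference was 0.34 with carnitine pool 2 left out and 1.18 without carnitine pool 1. Its second probe set, much dimmer, gave 0.80 ± 0.33. SEC23B, the other SEC23 paralog, had 1105 and 1263 against 1086 and 576 (log2 difference 0.58 ± 0.31, and 0.12 without control pool 2). SEC23IP, which binds SEC23 at ER exit sites, showed an even gap, with 1627 and 1709 against 1015 and 1107 (log2 difference 0.65 ± 0.19, adjusted p = 0.429).
No contrast between the inner and the outer coat was tested. In the outer coat the log2 differences ran from 0.18 to 0.53. SEC31A, its bright subunit, had 5507 and 6809 against 5470 and 5336, a log2 difference of 0.18 ± 0.19. That value became -0.21 with the mean over its 3 probe sets, of which the others were dim, at mean signals of 64.7 and 20.9. SEC31B and SEC13, both dimmer, had log2 differences of 0.21 ± 0.31 and 0.53 ± 0.41, and their pools overlapped. SEC31B was -0.15 without control pool 2, and SEC13 was 0.18 without control pool 1. The COPII median was 0.41 without carnitine pool 2.

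**Figure D3:**
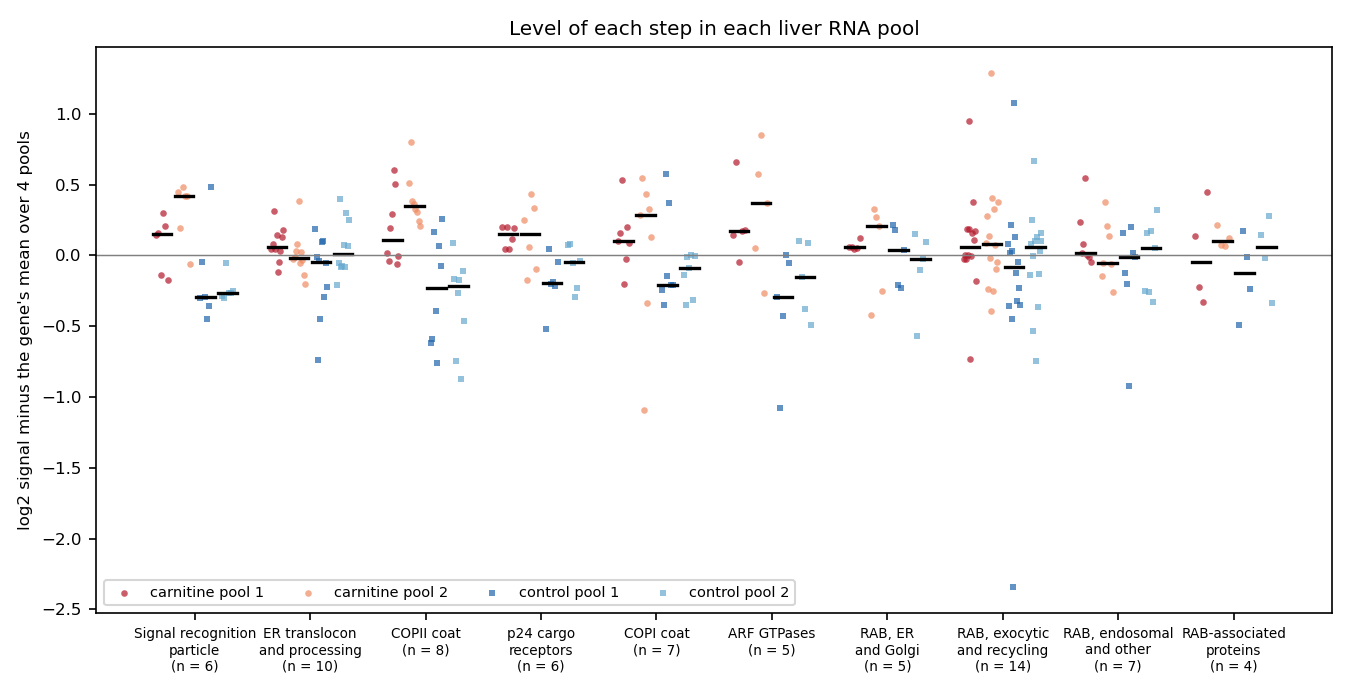
Log2 signal of each member minus its own mean over the 4 pools, by step and pool, with circles for carnitine pools, squares for control pools and a black bar at the median of the step (steps with at least 4 genes). The bars of the 2 carnitine pools lie above those of the control pools for the signal recognition particle, COPII, COPI, p24 and ARF steps and, narrowly, the ER and Golgi RABs, with carnitine pool 2 the highest in all of these but p24.

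The same signals can be set out pool by pool, which restates the differences above and is not a separate test. The steps given first are those with the largest median differences. Measured as log2 signal minus the gene's own mean, the median of the COPII genes was 0.11 and 0.35 with carnitine and -0.23 and -0.22 without it. For the signal recognition particle the medians were 0.15 and 0.42 against -0.30 and -0.27, and for the ARF genes 0.17 and 0.37 against -0.30 and -0.16. Carnitine pool 2 was the higher carnitine pool in each of these steps. For the translocon group the 4 medians lay between -0.048 and 0.061, and over all genes between 0.0022 and 0.017.

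Of the p24 cargo receptors, 5 of 6 had a log2 difference above 0, with a median of 0.35. TMED5 gave 5831 and 6769 with carnitine and 4626 and 4582 without it (log2 difference 0.45 ± 0.18, adjusted p = 0.560). The other 3 probe sets of TMED5 lay below the median signal and pointed the other way, with log2 differences from -0.54 to -0.35 and standard errors of at least 0.52. TMED4 had 2001 and 2620.5 against 1705 and 1578 (log2 difference 0.48 ± 0.21), and all 3 of its probe sets had values above 0, from 0.26 to 0.88. TMED10, the receptor also known as p24 delta, had 7874 and 8143 against 4783 and 7225 (log2 difference 0.45 ± 0.24), and its value was 0.15 without control pool 1, while its second bright probe set gave -0.19 ± 0.20. TMED2, the brightest of all members, was close to level at 15380.4 and 13189 against 15384 and 15731 (log2 difference -0.13 ± 0.19, and 0.014 with quantile normalization). The remaining receptors, TMED3 and TMED7, had log2 differences of 0.26 ± 0.37 and 0.091 ± 0.19.

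Among the 7 genes of the COPI coat, 5 had a log2 difference above 0 and the median was 0.24. COPB1, the beta subunit, gave 2823 and 3704 against 1982 and 1980.3, a log2 difference of 0.71 ± 0.20 (adjusted p = 0.429). COPZ1, the zeta-1 subunit, had 1412 and 1546 against 1066 and 991 (log2 difference 0.52 ± 0.19, adjusted p = 0.515). COPA, the alpha subunit, gave 2113 and 2406 against 1659 and 1789 (log2 difference 0.39 ± 0.19). In these 3 subunits, and in COPZ2, both carnitine pools exceeded both control pools. That made 4 of the 7 genes, against 21.5% of all genes and 23.7% of those above the median signal. Of the paralogous gamma subunits, COPG1 had 1228 and 1908 against 1276 and 1323 (log2 difference 0.24 ± 0.25), and only carnitine pool 2 was above the control pools, so that the value without it was -0.081. COPG2 was lower in both carnitine pools, with 1405 and 1135 against 1850.2 and 1434 (log2 difference -0.37 ± 0.22). The difference between the paralogs was not tested. COPZ2, the other zeta subunit, had a log2 difference of 0.22 ± 0.19. COPB2 was dim, with a mean signal of 42.4, and its value of -0.56 had a standard error of 0.69.

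Of the 5 ARF GTPases, 3 were higher at an unadjusted p under 0.05, against the 6.56% of all genes. ARF2, a class I ARF of the Golgi, gave 434 and 409 with carnitine and 130 and 247 without it, a fold change of 2.36 (log2 difference 1.24 ± 0.35, adjusted p = 0.428). It was 0.77 on the log2 scale without control pool 1, and its dimmer probe set gave 0.63 ± 0.56. ARF4, which acts at the Golgi and recycling endosomes, had 5358 and 9987 against 4122 and 4260.0 (log2 difference 0.80 ± 0.29, adjusted p = 0.515). Most of its difference came from carnitine pool 2, and without that pool the value was 0.35. ARF6, of the plasma membrane and endosomes, had 3679 and 4206 against 3145 and 2315 (log2 difference 0.54 ± 0.22, adjusted p = 0.549) and 0.32 without control pool 2. ARF1, the main recruiter of COPI, had 5266 and 4926 against 3875 and 5095, and its pools overlapped (log2 difference 0.20 ± 0.20). ARF5 was level, with a log2 difference of -0.090 ± 0.25.

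**Figure D4:**
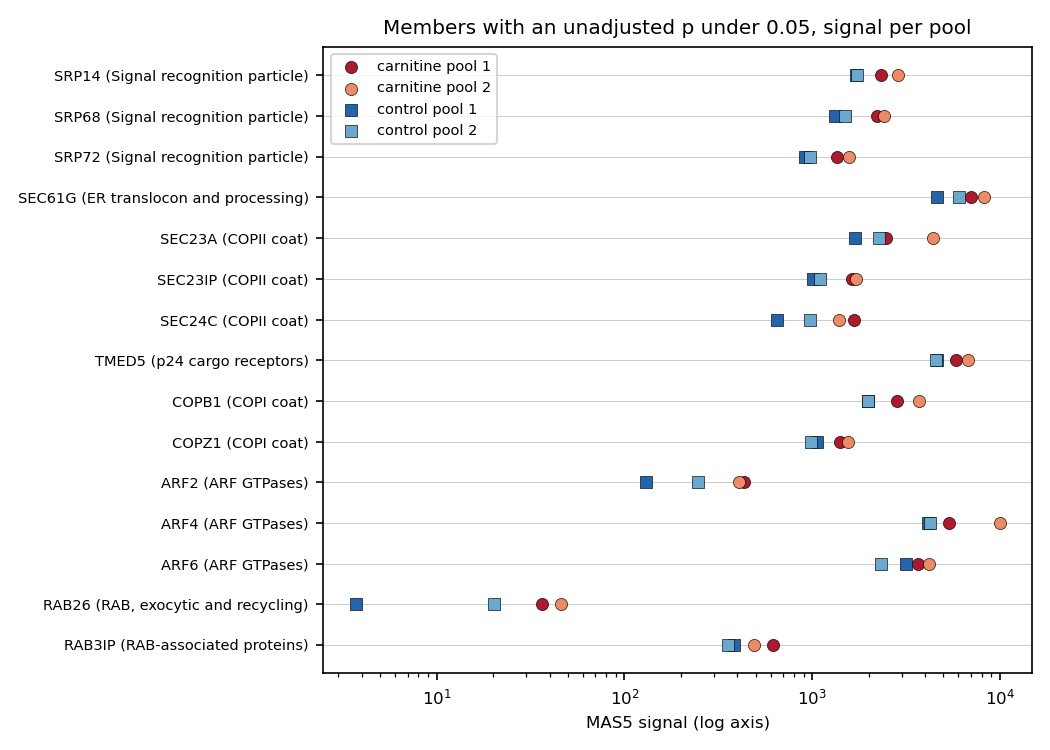
MAS5 signal on a log axis in each pool (red and orange circles for the carnitine pools, dark and light blue squares for the control pools) of the 15 members with an unadjusted limma p under 0.05. In all 15 the circles lie to the right of the squares, with the narrowest gaps for SEC23A, SEC61G and ARF6, and RAB26 is far dimmer than the others.

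The 26 RAB GTPases showed values on both sides of 0, with 16 above, 10 below and a median log2 difference of 0.11. One of them, RAB26 (3.85%), had an unadjusted p under 0.05 and was higher, and the share of all genes was the 6.56% given above. RAB26, a GTPase of secretory granules, lay far below the median signal, at 36.2 and 45.9 against 3.70 and 20.2 (log2 difference 2.24 ± 0.95, adjusted p = 0.577). Its value ranged from 1.02 without control pool 1 to 3.46 without control pool 2.
Of the RABs between ER and Golgi, RAB1A, which tethers ER-derived vesicles, had 2528 and 2957 against 2130 and 2288 (log2 difference 0.31 ± 0.19). RAB2A, which acts at the same border, had 5065 and 5635 against 4167 and 4790.2 (log2 difference 0.26 ± 0.19), so that both were modestly higher in each carnitine pool. RAB18, a GTPase of the ER and of lipid droplets, was lower in both carnitine pools, with 2340.4 and 1684 against 2609 and 2499 (log2 difference -0.36 ± 0.22). RAB19 and RAB34 completed the group, with log2 differences of 0.39 ± 0.40 and -0.13 ± 0.28. The RAB6A probe set that was left out of the members had 2452 and 2585 against 2793 and 2391.
Among the 14 exocytic and recycling RABs, RAB3D, a GTPase of regulated secretion, gave 1257 and 1015 against 774 and 882 (log2 difference 0.45 ± 0.21). RAB3A, better known from synaptic vesicles, had a log2 difference of 0.49 ± 0.33. RAB10, the brightest of the group, was level at 3876 and 4204 against 4185 and 3586 (log2 difference 0.059 ± 0.19). RAB11A and RAB11B, the recycling endosome pair, had log2 differences of 0.28 ± 0.23 and -0.26 ± 0.19. The other RABs of this group, RAB26 apart, ran from -0.32 ± 0.67 for RAB27B to 0.32 ± 0.26 for RAB13, a GTPase of tight junctions and exocytosis.
The 7 endosomal, lysosomal and other RABs had a median of 0.094, which was -0.070 without carnitine pool 1. RAB7A, which governs late endosomes, had 3103 and 2991 against 3162 and 3242, a narrow gap without overlap (log2 difference -0.072 ± 0.18). RAB28 gave 909 and 721 against 328 and 701 (log2 difference 0.76 ± 0.37), and its second bright probe set gave a like value of 0.78 ± 0.41, but without control pool 1 the value was 0.21. RAB24, linked to autophagy, had 791 and 968 against 651 and 625 (log2 difference 0.46 ± 0.22), while another bright probe set gave -0.072 ± 0.33. RAB9A, which serves transport from late endosomes to the Golgi, had 387 and 334 against 395 and 498 (log2 difference -0.30 ± 0.25). With the mean over its probe sets, of which the second was dim at a mean signal of 56.9, the value was 0.074. RAB22A, RAB23 and RAB32 lay between -0.036 and 0.13.

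Proteins that act on RABs also differed in direction. RAB3IP, an exchange factor for RAB8 also called Rabin8, had 616 and 492 with carnitine and 384 and 357 without it (log2 difference 0.57 ± 0.24, adjusted p = 0.574). The subunits of the RAB3 GTPase-activating complex, RAB3GAP1 and RAB3GAP2, had log2 differences of 0.35 ± 0.28 and -0.15 ± 0.22, and RAB3IL1, a relative of RAB3IP, -0.27 ± 0.37. SEC22C, a relative of the ER-Golgi SNARE SEC22B, was dim and had a log2 difference of -0.15 ± 0.40. SEC14L2, a tocopherol-associated protein and bright in these livers, had 16778 and 13190 against 13786 and 10245 (log2 difference 0.32 ± 0.23), and SEC14L1 -0.17 ± 0.28.

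Of the 75 members, 46 have 1 probe set and 29 have from 2 to 4. In 12 of the 29 all probe sets had log2 differences of the same sign. Where 2 or more probe sets lay above the median signal, in 14 genes, the bright ones shared a sign in 8, among them SEC23A, RAB28, TMED4, RAB1A and RAB10. They differed in sign for RAB24, RAB32, SEC63, SRP19, TMED7 and TMED10. With the mean over all probe sets of a gene, 11 members (14.7%) were higher at an unadjusted p under 0.05, against 5.50% of all genes, and the median of the members was 0.14.

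**Figure D5:**
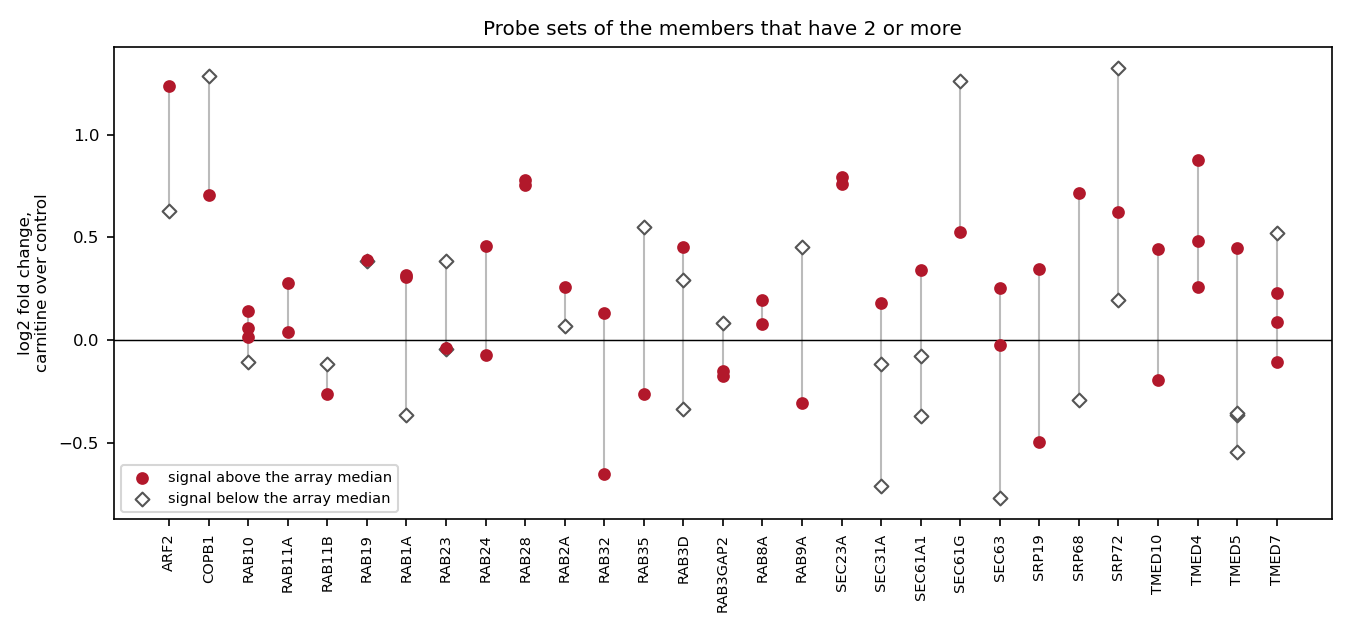
Log2 difference (carnitine over control) of each probe set of the 29 members that have 2 or more, with filled circles above and open diamonds below the median signal of the array. The bright probe sets of SEC23A and RAB28 coincide, while those of SRP19 and RAB32 lie on opposite sides of 0.

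Other genes of the pathway, 94 measured from a list of receptors, coat regulators, tethers and SNAREs, had a median log2 difference of 0.099. Of these 94, 60 (63.8%) lay above and 34 below 0, against 49.1% of all genes above 0. At an unadjusted p under 0.05, 10 were higher (10.6%) and 4 lower, and 0 passed the adjusted p in limma, against 6.56% and 3.99% of all genes. Without carnitine pool 1 the higher count was 4, where 3.47% of all genes were higher, and without control pool 1 it was 16, where 8.32% were. Of the 13 genes of COPII exit and cargo, 3 were higher and 1 lower. PREB, the exchange factor that starts COPII assembly, had 1332 and 1103 with carnitine and 724 and 491 without it, a log2 difference of 1.02 ± 0.26 (adjusted p = 0.399). TFG, which organizes ER exit sites, gave 2069.9 and 2720.0 against 1286 and 1283 (log2 difference 0.89 ± 0.21, adjusted p = 0.375).
BET1, a SNARE of ER-to-Golgi vesicles, had 798 and 781 against 423 and 329, a log2 difference of 1.08 ± 0.23 (adjusted p = 0.343). SNAP29, a SNARE of several membranes including autophagosomes, had 199 and 227 against 76.1 and 50.7 (log2 difference 1.78 ± 0.39, adjusted p = 0.350). CLTC, the clathrin heavy chain, gave 2785 and 2494 against 1536 and 1677 (log2 difference 0.72 ± 0.19, adjusted p = 0.399). In each of these 5 genes, named for their small p, the lower carnitine pool lay well above the higher control pool. Both carnitine pools lay above both control pools in 24 (25.5%) of the 94 genes, against 21.5% of all genes.
The 4 lower genes were TRAPPC4, TRAPPC1, MIA2 and AP2B1. TRAPPC4, a subunit of the TRAPP complex that activates RAB1, had 649 and 414 with carnitine and 1176 and 1385 without it (log2 difference -1.30 ± 0.27, adjusted p = 0.334). TRAPPC1, another subunit of that complex, had 489 and 431 against 636 and 781 (log2 difference -0.62 ± 0.23, adjusted p = 0.521). MIA2, a cargo receptor of ER exit sites, had 2629 and 2555 against 3903 and 3270.0 (log2 difference -0.46 ± 0.19, adjusted p = 0.555), and AP2B1, of the clathrin adaptor AP-2, had 423 and 411 against 625 and 585 (log2 difference -0.54 ± 0.22, adjusted p = 0.558). In all 4, which were taken by their unadjusted p, both carnitine pools lay below both control pools. So they did in 15 (16.0%) of the 94 genes and in 21% of all genes. The 17 tethering genes, of which 1 was higher and 2 were lower, had a median of -0.24, with 6 above and 11 below 0. Both subunits of the signal recognition particle receptor, SRPRA and SRPRB, lay higher in each carnitine pool, with log2 differences of 0.58 ± 0.19 and 0.55 ± 0.29.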

How the data were processed

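Signal intensities from MAS5 were deposited as 1 linear-scale table with 1 column per pool, scaled to a 2% trimmed mean of 500 per array. Tools in the submitters' processing notes are MAS5 5.0, Affymetrix Expression Console 1.1 and GCOS 1.1.2. No genome build was used. Median signals were 109 to 114. The number of arrays limits the precision. Of 24123 probe sets, 124 controls were left out and 23999 were put on the log2 scale without a pseudocount or filter. Limma 3.58.1 in R 4.3.3 (lmFit, eBayes with a variance trend, 2 residual degrees of freedom) was fitted over all of them, with Benjamini-Hochberg adjustment, and was tested on simulated data. Symbols came from the array's annotation, with 10069 probe sets under 1 symbol.

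Steps and lists were set by symbol, and the members and lists were chosen with earlier results of these data known. Named are members with an unadjusted p under 0.05 or a 2-fold difference above the median signal, the 3 smallest p-values and the brightest member of each step, members whose probe sets disagree while 1 has such a p, further probe sets of these members, and the 6 smallest p-values of the other pathway genes. The remaining genes named were chosen after their values were seen.

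Same-numbered pools did not deviate together (r = 0.0032 across 11999 bright probe sets), so no block was used. Alternatives were other scalings, a floor at the 25th percentile, an offset of 64, a filter, arithmetic means, other variance models, the replicate number as a block, leaving out each pool, and the mean over probe sets.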

Additional observations from a re-analysis of the deposited data

How the results depend on the processing

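The adjusted p was passed by 0 members and 0 other pathway genes under every alternative that gives one. The median of the members moved from 0.22 to 0.26 with median centring and to 0.14 with the mean over probe sets, and lay between 0.18 and 0.26 when pools were left out. The count of members higher at an unadjusted p under 0.05, 15 as reported, was 1 without a variance trend and 5 in the one-factor analysis of variance, and from 1 to 14 when pools were left out, and the count of lower members was 1 in the analysis of variance and from 0 to 2 without a pool. With the replicate number as a block it was again 15, of which 13 were the same genes, and the other pathway genes gave 12 higher and 3 lower. The replicate numbers do not pair the pools (r = 0.0032). The count at 2-fold higher, 2 as reported, was 1 with the floor, 1 above the median signal, 1 with the mean over probe sets, 0 with the offset of 64, 0 where all 4 pairs had to reach 2-fold, and from 3 to 4 without a pool, and the count at 2-fold lower was from 0 to 1.

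For the other pathway genes, 10 higher and 4 lower as reported, the higher count was 4 without a variance trend, 5 in the analysis of variance and from 4 to 16 without a pool. The lower count was 2 with median centring, 1 without a trend, 1 in the analysis of variance, 2 with the mean over probe sets and from 1 to 6 without a pool. At 2-fold, 3 higher became 1 with the offset and 1 by all 4 pairs, with 2 to 4 without a pool, and 1 lower became 0 by all 4 pairs and 1 to 2 without a pool. Their median was from 0.045 to 0.14 without a pool. The higher counts of both lists belong beside the share of all genes that were higher in the same setting. That share was 3.06% without a variance trend, 4.17% in the analysis of variance and 7.17% with the replicate number as a block. The shares without a pool are given with the members in the Results. For the lower and the 2-fold counts the share of all genes is given only for the main setting, so no excess can be read from their changes.

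By step, the ranges of the median without a pool were 0.38 to 0.69 for the signal recognition particle, -0.0016 to 0.11 for the translocon, 0.41 to 0.70 for COPII, 0.17 to 0.38 for p24, 0.21 to 0.48 for COPI, 0.35 to 0.77 for ARF, 0.016 to 0.33 for ER and Golgi RABs, 0.025 to 0.18 for exocytic RABs and -0.070 to 0.21 for endosomal and other RABs. The last turned without carnitine pool 1 (-0.070) and without control pool 2 (-0.054), and the translocon median, near 0, without carnitine pool 1 (-0.0016) and without control pool 1 (-0.0011). The mean over probe sets gave 0.28 for the signal recognition particle, 0.16 for p24 and 0.087 for ER and Golgi RABs, and the filter gave 0.45 for p24.

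Among the named genes, RAB10 (-0.052 without control pool 2, up to 0.17), SEC14L1 (0.15 without carnitine pool 2, from -0.50 upward over the pools left out), SEC22C (0.046 without carnitine pool 1, from -0.35), SEC61A1 (-0.22 without control pool 1, up to 0.91) and TMED2 (0.014 with quantile normalization) turned. With the mean over probe sets RAB9A (0.074), SEC31A (-0.21), SEC61A1 (-0.034), SRP19 (-0.073) and TMED5 (-0.20) turned. In all of these but SRP19 the added probe sets lay below the median signal. SSR2, near 0, was 0.060 with quantile normalization, 0.030 with median centring, 0.023 without carnitine pool 2 and ranged from -0.30 to 0.29 over the pools left out. Counting every member, at least 1 pool left out turned the sign of 1 of 6 in the signal recognition particle, 6 of 10 in the translocon, 1 of 8 in COPII, 1 of 6 in p24, 2 of 7 in COPI, 2 of 5 ARFs, and 1 of 5, 7 of 14 and 3 of 7 in the RAB groups. The causes were not tested. Fits without a pool take its diet from 1 pool, assumed to vary like the other diet. Signal over background is not known, which limits the dim genes.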
